A study of Mus musculus with 22 samples.

Results

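The 10 genes described here are the core genes of the Hippo pathway and its TEAD transcription factors: the coactivators Yap1 and Wwtr1 (the gene of TAZ), the DNA-binding factors Tead1, Tead2, Tead3 and Tead4, the kinases Lats1 and Lats2, and the upstream proteins Amot and Nf2. They were chosen by name among the 55335 genes of the deposited expression table, where each symbol matched 1 gene. The study knocked down the histone variant H2A.Z in mouse embryos and sequenced RNA from whole embryos. Embryos came from crosses of B6D2F1 mice (dams of 8 weeks), and each library was a pool of 15 embryos prepared by Smart-seq2, a full-length cDNA method that does not mark the strand. In the knockdown (KD) groups, per the methods, zygotes received about 10 pL of a mix of 3 siRNA pairs against H2A.Z at 20 µM, injected 20 to 22 h after human chorionic gonadotropin (hCG). What the control embryos of these libraries received is not stated. There were 4 control and 3 KD libraries of 2-cell embryos (43 to 44 h after hCG), 4 control and 3 KD libraries of morulae (78 h), and 4 control and 4 KD libraries of blastocysts (94 h). The study reports that fewer KD than control embryos formed blastocysts. Whether the KD embryos collected as blastocysts had come as far in development as their controls was not tested here.

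In the Hippo pathway, LATS kinases phosphorylate YAP1 and TAZ, which then stay in the cytoplasm. Unphosphorylated YAP1 and TAZ enter the nucleus and act through TEAD factors. In the mouse embryo before implantation, the outer, polarised cells have low Hippo activity and nuclear YAP1, and TEAD4 with YAP1 switches on trophectoderm genes such as Cdx2, while the inner cells have AMOT, NF2 and LATS activity and keep the inner cell mass programme.

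All values are FPKM (fragments scaled to transcript length and library size), so levels of different genes can be set side by side. The table holds no counts. Steps among the low values of 13491 single-exon genes gave a weak estimate of relative depth, from 14.8 to 28.7 in relative units over the 22 libraries. The group medians of this estimate were 25.1 and 23.2 in 2-cell control and KD libraries, 23.9 and 24.0 in morulae, and 17.7 and 19.8 in blastocysts. At most 20.9% of a library's low values lay within 0.01 of a whole step, so read numbers could not be recovered and the counting error of single values is unknown. Fold changes are differences on the scale of log2(FPKM + 1) after scaling, a scale that understates the change of low genes, and they are given with the standard error (SE). Adjusted p-values come from limma with Benjamini-Hochberg adjustment over all genes tested, and a gene is said to pass the test at an adjusted p under 0.05. They set each difference against the spread between these pools of embryos, an estimate of the spread that also draws on the other genes. In such bulk libraries, fewer cells of a type and less RNA per cell cannot be told apart.

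The knocked-down gene was low in every KD library. H2afz, which encodes H2A.Z, had 1244, 1237, 905 and 1178 FPKM in the 2-cell controls (replicates 1, 2, 4 and 5) and 415, 139 and 112 FPKM in the 2-cell KD libraries (replicates 1, 2 and 4). In morulae it had 1158, 1336, 1511 and 1421 FPKM in the controls (replicates 1, 2, 7 and 8) and 30.3, 25.7 and 29.0 FPKM after KD (replicates 1, 2 and 6). In blastocysts it had 2656, 2431, 1945 and 2055 FPKM in the controls and 64.2, 67.2, 53.2 and 57.6 FPKM after KD (replicates 1, 4, 5 and 6 in both groups). No KD library reached the lowest control of its stage, and 2-cell KD replicate 1 kept the most H2afz of all KD libraries. The log2 fold change was -5.41 ± 0.17 (SE) in morulae (adjusted p 9.71e-08) and -5.19 ± 0.20 in blastocysts (adjusted p 3.63e-08). The 2-cell difference of -2.53 ± 0.38 did not pass (adjusted p 0.543), but did without KD replicate 1, at -3.12 (adjusted p 0.000907, against 0.000907 to 0.861 over the alternatives). H2afz has processed copies elsewhere in the genome that could share its reads, so its residual level is uncertain. H2afv, which encodes the near-identical variant H2A.Z.2, fell by 2.93 on the log2 scale in KD morulae (SE 0.15, adjusted p 2.93e-06) and by 1.86 in KD blastocysts (SE 0.22, adjusted p 7.95e-05). In 2-cell embryos H2afv averaged 110 ± 8.96 FPKM (SD, n = 4) in controls and 88.9 ± 7.56 FPKM (n = 3) after KD (log2 fold change -0.23, adjusted p 0.84).

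Several members differed between the stages of normal development. From control 2-cell embryos to control morulae, Tead4, Lats2, Amot and Wwtr1 rose and Yap1 and Nf2 fell, which is 4 higher and 2 lower of the 7 members tested. Of all 13655 genes tested in that comparison, 43% were higher and 40.3% lower. From control morulae to control blastocysts, Tead2 rose and Tead4 and Nf2 fell, 1 higher and 2 lower of 7 members tested, against 27.6% and 28.8% of 11849 genes. A gene had to have at least 1 FPKM in at least 3 libraries of a comparison to be tested, so a gene that reached this level in only 1 group had to differ in that direction to be tested. That holds for Lats2 and Amot in the first comparison and Tead2 in the second, so the counts support nothing on the members as a set. These 3 also passed with no minimum FPKM (adjusted p 0.00462, 2.6e-06 and 0.00591). These 2 comparisons share the morula controls.

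After H2A.Z KD, 2 members passed the test, both in blastocysts; the members were not tested against all genes as a set. In 2-cell embryos limma called 0 of the 5 members tested and 0 of 12160 genes (0% higher and 0% lower), with 701 genes at an unadjusted p under 0.05. Without KD replicate 1 it called 3 genes lower, and without control replicate 2 it called 1 lower; the members called stayed at 0. In morulae it called 0 of 7 members, against 4.23% of 10989 genes higher and 9.04% lower. Over all genes, 3352 had an unadjusted p under 0.05 in morulae. In blastocysts Tead4 and Nf2 rose, 2 of 8 members tested, against 16.7% of 11828 genes higher and 19.8% lower. Testing whether the KD effect in blastocysts differed from that in morulae called 0 of 9 members, against 5.43% of 12727 genes higher and 6.32% lower and 3480 genes at an unadjusted p under 0.05. The 1458 genes called in morulae became 910 without control replicate 7, 855 without control replicate 8, 579 without KD replicate 1, 551 without KD replicate 2, and 412 with no minimum FPKM. Of the genes called in morulae 31.9% were higher, or 15.3% with FPKM as deposited and 11.9% with FPKM rescaled to equal sums. For the difference between the stages 1495 genes were called, 46.2% of them higher, or 71.3% with equal sums. The called genes there numbered 962 without morula KD replicate 1 and 988 with no minimum FPKM.

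**Figure D1:**
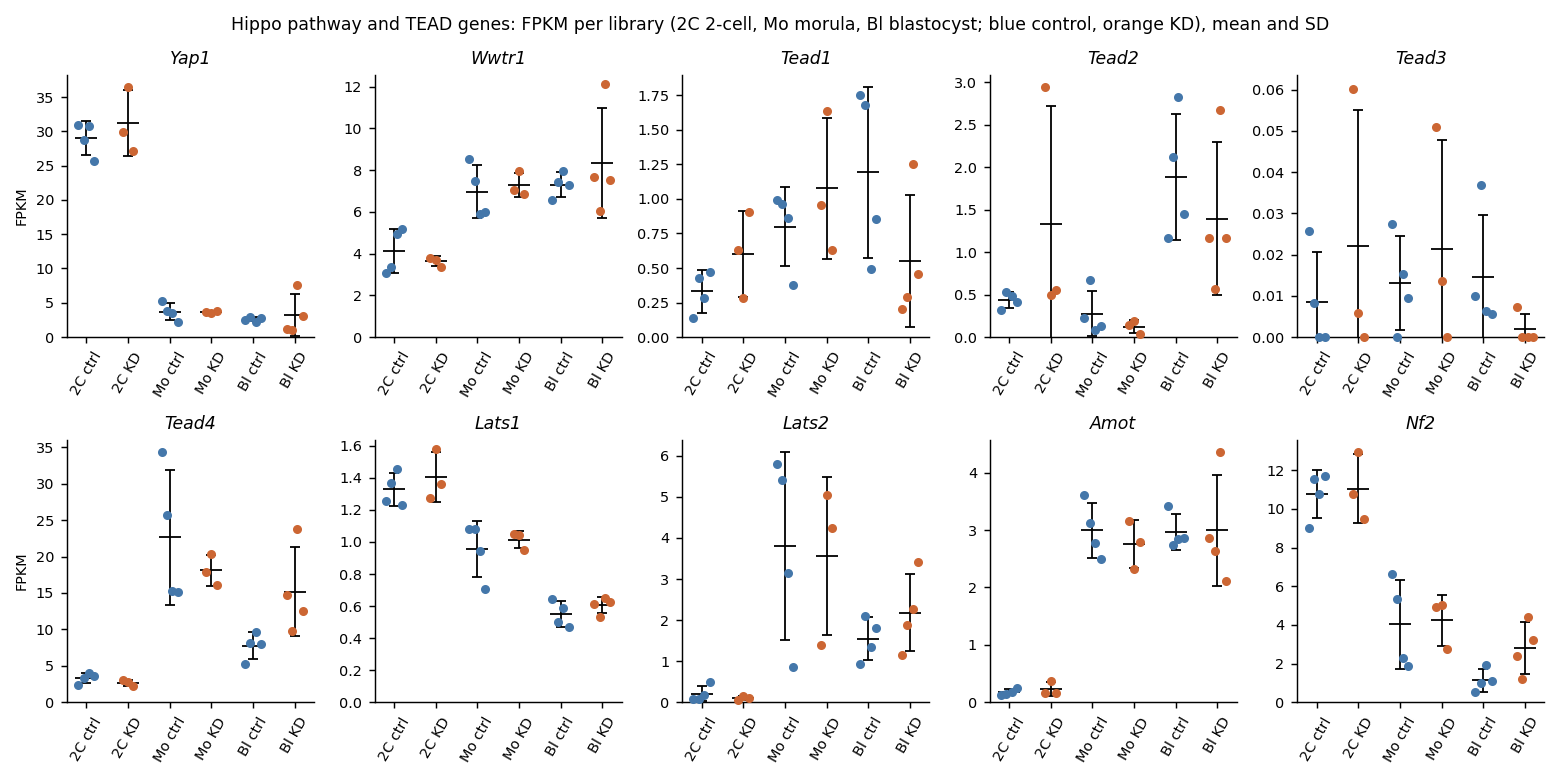
FPKM of each of the 10 members in every library (points), with the mean and SD of each of the 6 groups (control blue, KD orange), on a linear axis from 0 that differs between panels; lower SD arms that pass 0 are not drawn. Yap1 is near 30 FPKM in 2-cell embryos and at most 7.60 FPKM later, and the group means of Tead4 peak in morulae.

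Yap1 (ENSMUSG00000053110.13), the main coactivator of TEAD factors, lies on chromosome 9 from 7931999 to 8004596 on the minus strand (GRCm38). Its level was 31.0, 28.7, 30.7 and 25.7 FPKM in the 2-cell controls and 29.9, 36.5 and 27.1 FPKM in the 2-cell KD libraries. It was 5.25, 3.85, 3.48 and 2.18 FPKM in the morula controls and 3.60, 3.44 and 3.78 FPKM in KD morulae. Blastocyst controls had 2.48, 2.94, 2.23 and 2.85 FPKM, and KD blastocysts had 1.13, 1.03, 7.60 and 3.03 FPKM. Every 2-cell library was thus far above every later one, while control and KD overlapped at each stage. In KD blastocysts replicates 1 and 4 lay below and replicates 5 and 6 above all 4 controls. Between the control stages, Yap1 fell by 2.72 on the log2 scale to the morula (SE 0.19, adjusted p 5.62e-08). The next step to the blastocyst was -0.39 (SE 0.18, adjusted p 0.086) and passed the test without morula control replicate 8, at -0.55 (adjusted p 0.0187, range over the alternatives 0.0187 to 0.202). For the 2-cell stage the KD difference was 0.16 (95% interval -0.18 to 0.50), for morulae 0.12 (-0.31 to 0.54) and for blastocysts -0.06 (-0.81 to 0.70). The last is the widest interval of the members tested in blastocysts, and the sign turned in 3 of 13 alternatives in morulae (range -0.15 to 0.22) and in 3 of 14 in blastocysts (-0.44 to 0.19). In blastocysts these were equal sums (0.038) and the fits without KD replicate 1 (0.16) or 4 (0.19), and in morulae equal sums (-0.031), the replicate number as a block (-0.15) and the fit without control replicate 8 (-0.030). The labels do not pair replicates of the same number. In morulae every difference from this block rests on replicates 1 and 2, the only numbers found in both groups.

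Wwtr1 (ENSMUSG00000027803.14), the gene of the second coactivator TAZ, lies on chromosome 3 from 57455649 to 57575910 on the minus strand. It had 3.08, 3.33, 4.92 and 5.16 FPKM in 2-cell controls, 8.54, 7.49, 5.88 and 5.97 FPKM in morula controls and 6.55, 7.41, 7.98 and 7.26 FPKM in blastocyst controls. All morula controls exceeded all 2-cell controls. The rise to the morula was 0.64 ± 0.17 (SE, adjusted p 0.00331). With FPKM rescaled to equal sums it was 0.32 and no longer passed (adjusted p 0.189, range over the alternatives 0.00324 to 0.189), while the median of all genes was then -0.21. KD libraries had 3.36 to 3.80 FPKM in 2-cell embryos, 6.84 to 7.95 FPKM in morulae and 6.02 to 12.1 FPKM in blastocysts, and overlapped the controls at each stage.

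The balance of the coactivators turned between the 2-cell embryo and the morula. Yap1 made up 87.5 ± 3.46% (SD, n = 4) of the summed FPKM of Yap1 and Wwtr1 in 2-cell controls and 34.0 ± 5.15% (n = 4) in morula controls. In blastocyst controls it made up 26.5 ± 3.10% (n = 4). The KD groups had 89.5 ± 1.11% (n = 3), 33.2 ± 2.73% (n = 3) and 23.7 ± 12.2% (n = 4) at the same stages. Wwtr1 RNA was therefore the more abundant of the pair from the morula on, in control and KD groups alike by their means. The blastocyst KD libraries spanned 12.9% to 38.5%, wider than the 21.9% to 28.4% of their controls.

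Tead4 (ENSMUSG00000030353.15), the TEAD factor needed for trophectoderm formation, lies on chromosome 6 from 128224288 to 128300823 on the minus strand. It had 2.40, 3.36, 4.04 and 3.59 FPKM in the 2-cell controls and 3.08, 2.74 and 2.28 FPKM after KD. Morula controls had 34.4, 25.7, 15.3 and 15.1 FPKM, and KD morulae had 17.9, 20.3 and 16.1 FPKM. Blastocyst controls had 5.20, 8.20, 9.60 and 7.98 FPKM, and KD blastocysts had 14.7, 9.77, 23.8 and 12.6 FPKM. The group means were highest in morulae, though KD blastocyst replicate 5 lay above every KD morula. All 4 KD blastocyst libraries lay above all 4 blastocyst controls, the closest being KD replicate 4 and control replicate 5. At the 2-cell and morula stages control and KD overlapped.

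In controls Tead4 rose by 2.36 ± 0.22 on the log2 scale from the 2-cell embryo to the morula (adjusted p 8.15e-07) and then fell by 1.46 to the blastocyst (SE 0.23, adjusted p 0.000205). In KD blastocysts it was higher by 0.85 ± 0.22 (95% interval 0.37 to 1.33, adjusted p 0.00989). It passed in all 14 alternatives tried (adjusted p 0.00488 to 0.0492). The KD differences at the earlier stages were -0.17 in 2-cell embryos (adjusted p 0.89) and -0.11 in morulae (adjusted p 0.783). Over the alternatives the morula difference ran from -0.45, with the replicate number as a block, to 0.051, without control replicate 1 (adjusted p 0.193 to 0.967). The blastocyst effect exceeded the morula effect by 0.92 ± 0.34, which did not pass (adjusted p 0.0858). It passed without blastocyst KD replicate 4, at 1.07 (adjusted p 0.0439, range over the alternatives 0.0439 to 0.223). The mean of Tead4 in KD blastocysts was 15.2 ± 6.07 FPKM (SD, n = 4), against control means of 22.6 ± 9.29 FPKM in morulae and 7.75 ± 1.84 FPKM in blastocysts (n = 4 each), and KD replicate 5 lay above the morula mean. The part of developmental progress in the blastocyst difference was not tested.

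Tead1 (ENSMUSG00000055320.17; chromosome 7, 112679318 to 112906807, plus strand) and Tead2 (ENSMUSG00000030796.17; chromosome 7, 45215753 to 45233644, plus strand) were lower than Tead4 in every library. Tead1 had 1.75, 1.68, 0.490 and 0.852 FPKM in the blastocyst controls and 0.206, 0.288, 1.25 and 0.455 FPKM in KD blastocysts. In KD blastocysts, 3 of the 4 libraries lay below all controls and replicate 5 lay among them. The difference was -0.52 ± 0.24 (95% interval -1.04 to 0.0096) and did not pass (adjusted p 0.115), but did without control replicate 5, at -0.70 (adjusted p 0.0343, range over the alternatives 0.0343 to 0.307). With a pseudocount of 0.1 it was -1.10. At the other stages Tead1 ranged from 0.135 to 1.64 FPKM.

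Tead2 had 1.16, 2.11, 2.82 and 1.44 FPKM in blastocyst controls and 1.16, 0.564, 2.67 and 1.17 FPKM in KD blastocysts, which overlap (difference -0.30 ± 0.23, adjusted p 0.338). Its level in morula controls was 0.0883 to 0.669 FPKM. Tead2 rose by 1.11 ± 0.19 between the control morula and blastocyst (adjusted p 0.000358), or by 2.48 with a pseudocount of 0.1. One 2-cell KD library, replicate 1, had 2.94 FPKM of Tead2, against 0.316 to 0.556 FPKM in the 6 other 2-cell libraries. Tead3 (ENSMUSG00000002249.21; chromosome 17, 28331671 to 28350817, minus strand) was at most 0.0601 FPKM in any library, was listed at 0 in 8 of 22, and was never tested.

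As shares of the summed FPKM of the 4 TEAD genes, Tead4 made up 81.4 ± 2.98% (SD, n = 4) in 2-cell controls, 95.3 ± 1.49% (n = 4) in morula controls and 71.0 ± 6.09% (n = 4) in blastocyst controls. In KD morulae the Tead4 share was 93.9 ± 2.16% (n = 3). In blastocysts the Tead4 share was 64.0%, 68.2%, 74.3% and 77.6% in the controls and 91.4%, 92.0%, 85.9% and 88.5% after KD. Each KD blastocyst library was thus more dominated by Tead4 than any control of that stage. The Tead2 share was 14.0% to 21.8% in these controls and 5.31% to 9.64% after KD, and the Tead1 share was 3.79% to 21.5% and 1.29% to 4.51%. Only for Tead1 did these ranges overlap. The summed TEAD level overlapped, at 8.12 to 12.9 FPKM in controls and 10.6 to 27.7 FPKM after KD. In 2-cell KD libraries the Tead4 share was 45.9%, 77.9% and 61.0%, the lowest being replicate 1 with its high Tead2. These shares are descriptions and were not tested.

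**Figure D2:**
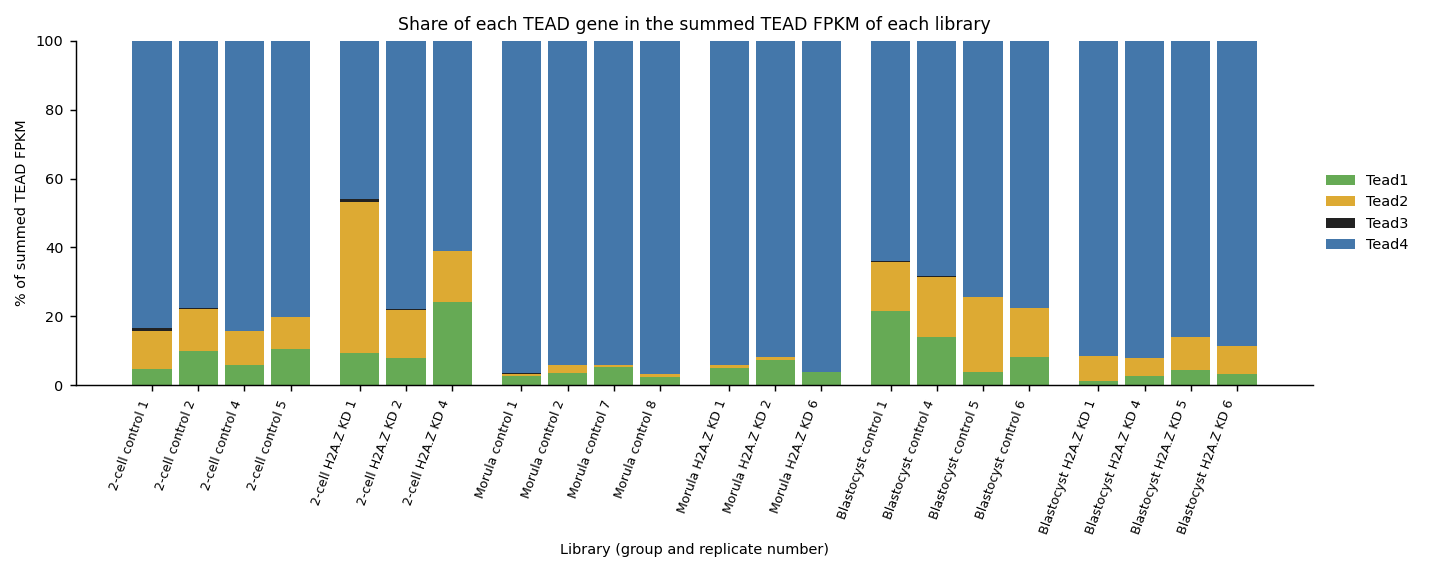
Percent of the summed FPKM of Tead1, Tead2, Tead3 and Tead4 taken by each gene, drawn as 1 stacked bar per library with the libraries ordered by group. Tead4 takes the largest share in every library, and its share in blastocysts is 64.0% to 77.6% in controls and 85.9% to 92.0% after KD.

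Lats1 (ENSMUSG00000040021.13; chromosome 10, 7681214 to 7716460, plus strand) and Lats2 (ENSMUSG00000021959.16; chromosome 14, 57689662 to 57758388, minus strand) encode the kinases that phosphorylate YAP1 and TAZ. Lats1 was low, at 1.33 ± 0.104 FPKM (SD, n = 4) in 2-cell controls, 0.955 ± 0.176 FPKM (n = 4) in morula controls and 0.552 ± 0.0799 FPKM (n = 4) in blastocyst controls. The ranges of these 3 control groups did not overlap. The morula difference from the 2-cell embryo was -0.26 ± 0.12 and did not pass (adjusted p 0.0691), but did without 2-cell control replicate 5, at -0.30 (adjusted p 0.0499), and with equal sums, at -0.47 (adjusted p 0.0052). Over the alternatives its adjusted p ran from 0.0052 to 0.216. KD groups had 1.41 ± 0.157, 1.02 ± 0.0539 and 0.607 ± 0.0499 FPKM, and each overlapped its controls.

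Lats2 was close to absent in 2-cell controls (0.0895 to 0.484 FPKM). Morula controls had 5.80, 5.40, 3.14 and 0.869 FPKM, and KD morulae had 1.39, 5.04 and 4.24 FPKM. Blastocyst controls had 0.936, 2.11, 1.36 and 1.81 FPKM, and KD blastocysts had 1.16, 1.89, 2.26 and 3.41 FPKM. Control and KD overlapped at both later stages, and morula control replicate 8 and KD replicate 1 were far below the rest of their groups. Lats2 rose by 1.80 ± 0.32 to the control morula (adjusted p 0.00019), or by 3.51 with a pseudocount of 0.1. The step to the blastocyst was -0.82 ± 0.33 (adjusted p 0.0521). It passed without morula control replicate 8, at -1.21 (adjusted p 0.000771, range over the alternatives 0.000771 to 0.185). KD differences were 0.09 (95% interval -0.88 to 1.06) in morulae and 0.30 (-0.18 to 0.77) in blastocysts. The morula sign turned in 6 of 13 alternatives: with the replicate number as a block (-0.65), without control replicate 8 (-0.29), KD replicate 2 (-0.17) or KD replicate 6 (-0.090), and with FPKM as deposited (-0.020) or rescaled to equal sums (-0.061). Values of Lats2 are uncertain, since 2955 of its exon bases are shared, on the same strand, with the annotated gene Gm49361. That gene had 2.49 FPKM on average in morula controls (2.02 to 3.06) and 3.35 FPKM in KD morulae (3.10 to 3.64). In blastocysts it averaged 1.45 FPKM in controls (1.23 to 1.78) and 2.20 FPKM after KD (1.81 to 2.61). At neither stage did its control and KD ranges overlap.

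The more abundant kinase RNA was Lats1 in 2-cell embryos and, by the group means, Lats2 later. Lats2 made up 12.9 ± 10.4% (SD, n = 4; 7.80% without replicate 5, which had 28.3%) of the summed FPKM of Lats1 and Lats2 in 2-cell controls, 74.9 ± 13.6% (n = 4) in morula controls and 72.3 ± 9.98% (n = 4) in blastocyst controls. After KD the Lats2 share averaged 7.06% (4.51% to 9.46%, n = 3), 73.8% (57.0% to 82.8%, n = 3) and 76.3% (65.3% to 84.4%, n = 4), and overlapped the controls at each stage.

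Amot (ENSMUSG00000041688.16), a junction scaffold that binds YAP1 and activates LATS in inner cells, lies on the X chromosome from 145446425 to 145505181 on the minus strand. Its level was 0.127 to 0.245 FPKM in 2-cell controls, 2.49 to 3.60 FPKM in morula controls and 2.73 to 3.42 FPKM in blastocyst controls. Amot rose by 1.73 ± 0.12 to the control morula (adjusted p 6.64e-08), or by 3.48 with a pseudocount of 0.1, and kept this level in the blastocyst (difference -0.07, 95% interval -0.40 to 0.26). KD groups had 0.165 to 0.366, 2.32 to 3.15 and 2.11 to 4.36 FPKM, each overlapping its controls. Its KD difference was 0.0055 (-0.33 to 0.34) in morulae and -0.01 (-0.42 to 0.39) in blastocysts, the smallest of the tested members at both stages. These signs turned in 8 of 13 alternatives in morulae (range -0.13 to 0.091) and 4 of 14 in blastocysts (-0.12 to 0.10).

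Nf2 (ENSMUSG00000009073.16), the gene of Merlin, a membrane-associated protein that brings LATS kinases to the membrane, lies on chromosome 11 from 4765845 to 4849536 on the minus strand. It had 9.02, 11.6, 10.7 and 11.7 FPKM in 2-cell controls and 10.8, 12.9 and 9.45 FPKM after KD. Morula controls had 6.61, 5.32, 2.32 and 1.86 FPKM, and KD morulae had 4.95, 5.02 and 2.73 FPKM. Blastocyst controls had 0.551, 0.992, 1.95 and 1.08 FPKM, and KD blastocysts had 2.41, 1.20, 4.43 and 3.20 FPKM. The control level went down from stage to stage, with blastocyst control replicate 5 just above morula control replicate 8, and in blastocysts 3 of the 4 KD libraries lay above all controls, with KD replicate 4 below control replicate 5.

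In controls Nf2 fell by 1.35 to the morula (SE 0.26, adjusted p 0.000421) and by 1.20 to the blastocyst (SE 0.28, adjusted p 0.00342). It was higher in KD than in control blastocysts by 0.79 ± 0.25 (95% interval 0.26 to 1.33, adjusted p 0.0249). This call depends on single libraries, since it was kept in 8 of 14 alternatives (adjusted p 0.00421 to 0.113). It was lost without control replicate 1 (0.68, adjusted p 0.0713), control replicate 4 (0.76, adjusted p 0.0607) or control replicate 6 (0.79, adjusted p 0.051). It was also lost without KD replicate 5 (0.64, adjusted p 0.0704) or KD replicate 6 (0.73, adjusted p 0.0646), and with no minimum FPKM (adjusted p 0.113). With a pseudocount of 0.1 the difference was 1.21. In morulae the KD difference of Nf2 was 0.25 ± 0.31 (adjusted p 0.624), with -0.070, from the replicate number as a block, to 0.45, without KD replicate 6, over the alternatives, and the blastocyst effect exceeded it by 0.50 ± 0.42 (adjusted p 0.474).

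**Figure D3:**
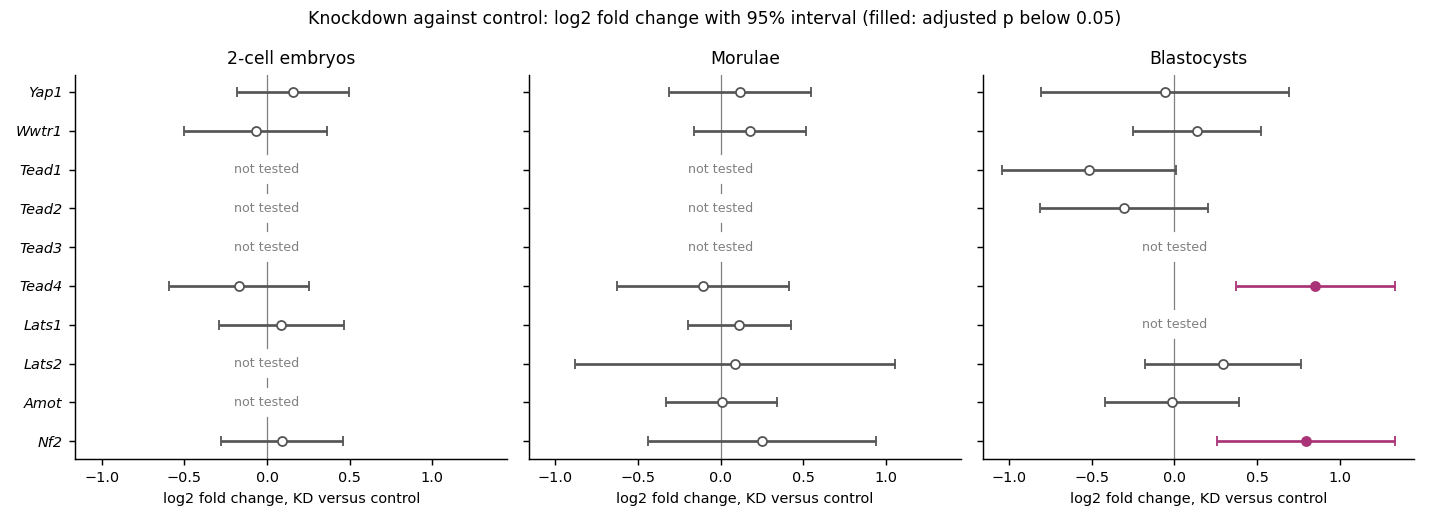
KD minus control difference of each tested member, in log2(FPKM + 1) units with its 95% interval, in 2-cell embryos, morulae and blastocysts. Filled points mark the differences that passed the test, Tead4 (0.85) and Nf2 (0.79) in blastocysts.

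Single libraries stood apart across several members at once. KD blastocyst replicate 5 had the highest value of its group for Yap1, Wwtr1, Tead1, Tead2, Tead4, Lats1, Amot and Nf2. Over all genes, this library had the lowest summed FPKM of its group (589520, against 625634 to 645717). It also had the most genes of at least 1 FPKM (11495, against 10792 to 11048). The share of all genes highest in it was not computed, so the list supports nothing on the members. Tead4 without KD replicate 5 differed by 0.68 between KD and control blastocysts and still passed, with an adjusted p inside the range given above. Among morula controls, replicates 1 and 2 had more RNA of several members than replicates 7 and 8. Their means were 30.1 against 15.2 FPKM for Tead4, with KD values of 19.1 FPKM in replicates 1 and 2 and 16.1 FPKM in replicate 6. For Nf2 they were 5.97 against 2.09 FPKM, with 4.98 and 2.73 FPKM after KD. For Lats2 they were 5.60 against 2.00 FPKM, with 3.21 and 4.24 FPKM after KD. Within blastocysts, replicate 1 had 5.20 FPKM of Tead4 in control and 14.7 FPKM in KD, and the higher-numbered replicates averaged 8.59 and 15.4 FPKM. For Nf2 these were 0.551 and 2.41 FPKM in replicate 1, and 1.34 and 2.94 FPKM in the others, so both genes were higher after KD within each range of replicate numbers by their means. The labels do not say what the replicate numbers stand for.

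Of a list of 32 other regulators of the pathway, 17 were tested in morulae and 19 in blastocysts, and in 2-cell embryos 0 of 15 tested passed. In KD morulae 1 rose and 0 fell, against 4.23% and 9.04% of all genes. The 1 was Mob1b, a LATS cofactor, at 8.77 ± 1.38 FPKM (SD, n = 4) in controls and 11.8 ± 0.887 FPKM (n = 3) after KD (0.51, adjusted p 0.0455). Its call was kept in 3 of 13 alternatives, with adjusted p from 0.0333 to 0.176, and was lost without each library in turn except control replicate 1. It was also lost with no minimum FPKM (adjusted p 0.0698), FPKM as deposited (adjusted p 0.116), equal sums (adjusted p 0.176) and the replicate number as a block (adjusted p 0.137).

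In KD blastocysts 1 of these regulators rose and 2 fell of 19 tested, against 16.7% and 19.8% of all genes. Stk3, an upstream kinase (MST2), had 3.80, 5.37, 7.05 and 5.16 FPKM in controls and 1.74, 2.66, 3.77 and 2.59 FPKM after KD. Vgll1, a TEAD-binding cofactor, had 2.37, 1.95, 3.60 and 2.28 FPKM in controls and 1.27, 1.13, 0.877 and 0.882 FPKM after KD. Neither gene's groups overlapped. Both genes were named for passing the test, so this adds no support, and the share of all genes without overlap was not computed. Stk3 fell by 0.78 (SE 0.19, adjusted p 0.007) and Vgll1 by 0.77 (SE 0.18, adjusted p 0.00543), or by 1.19 with a pseudocount of 0.1. The related kinase gene Stk4 (MST1) was higher, at 6.73 ± 1.02 against 4.44 ± 0.382 FPKM (SD, n = 4 each; 0.50, adjusted p 0.0289). Its call was kept in 9 of 14 alternatives (adjusted p 0.0228 to 0.0849) and lost without control replicate 4, 5 or 6 (adjusted p 0.0849, 0.0666 and 0.0531) or KD replicate 1 or 6 (adjusted p 0.0716 and 0.07). Along normal development 8 of 18 tested regulators rose and 8 fell to the morula (all genes 43% and 40.3%), and 6 of 19 rose and 9 fell to the blastocyst (all genes 27.6% and 28.8%).

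Junction and polarity genes, which feed position and polarity into the pathway, formed a list of 23. In 2-cell embryos 0 of 19 tested passed. In KD morulae 0 rose and 1 of 19 fell, against 4.23% and 9.04% of all genes. The gene was Pard6a, a polarity complex subunit (5.35 ± 0.517 FPKM in controls, SD, n = 4, and 2.51 ± 0.748 FPKM after KD, n = 3; -0.78, adjusted p 0.0262). It passed in 8 of 13 alternatives (adjusted p 0.00972 to 0.115) and did not without control replicate 7 or 8 (adjusted p 0.0572 and 0.066), without KD replicate 1 or 2 (adjusted p 0.0813 and 0.115), or with no minimum FPKM (adjusted p 0.0996). In KD blastocysts 3 of 22 rose and 0 fell, against 16.7% and 19.8% of all genes. The 3 were Crb3, a polarity protein gene (0.52, adjusted p 0.0449), Pard6g (0.50, adjusted p 0.0192, or 0.94 with a pseudocount of 0.1) and the small GTPase gene Rhoa (0.49, adjusted p 0.0181). Their levels were 38.3 ± 6.66 and 55.7 ± 12.6 FPKM for Crb3, 0.679 ± 0.107 and 1.40 ± 0.290 FPKM for Pard6g, and 105 ± 13.8 and 148 ± 18.0 FPKM for Rhoa in controls and KD (SD, n = 4 each). Crb3 passed in 4 of 14 alternatives (adjusted p 0.0105 to 0.118) and of the 8 fits without 1 library only in that without KD replicate 4. It did not pass with no minimum FPKM (adjusted p 0.11), FPKM as deposited (adjusted p 0.0664) or the replicate number as a block (adjusted p 0.0538). Rhoa did not pass without control replicate 4 or KD replicate 6 (adjusted p 0.0569 and 0.0577), and Pard6g did not without control replicate 6 (adjusted p 0.0574). Pard6g reached 1 FPKM in 0 of 4 controls and 4 of 4 KD libraries, so it could be tested only by being higher after KD; with no minimum FPKM it also passed (adjusted p 0.036, range over the alternatives 0.0168 to 0.0574).

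Among target genes of YAP and TEAD, a published signature of 22 genes from cancer cell lines that also holds Lats2, few were expressed. The minimum was reached by 4 of them at the 2-cell stage, by 5 in morulae and by 6 in blastocysts, and of these 0, 1 and 4 rose after KD and 0 fell. Of all genes 0%, 4.23% and 16.7% rose and 0%, 9.04% and 19.8% fell. F3, Ccn2 and Gadd45a, which are 3 of those 4, met the minimum in blastocysts through KD libraries, with 0, 0 and 1 of 4 controls at 1 FPKM, so the count does not support a direction for the signature. The list was chosen on other cells and holds many genes that these embryos hardly express. Whether its origin plays a part in that was not tested.

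Ccn1, encoding a secreted matrix protein (CYR61), had 1.90, 2.02, 3.45 and 3.24 FPKM in control blastocysts and 11.4, 11.5, 16.2 and 10.5 FPKM after KD. Ccn2, encoding the related CTGF, had 0.216, 0.746, 0.570 and 0.843 FPKM in controls and 3.48, 2.27, 3.64 and 1.86 FPKM after KD. F3, encoding tissue factor, had 0.434, 0.318, 0.769 and 0.600 FPKM in controls and 3.23, 3.02, 4.54 and 4.45 FPKM after KD. For these 3 genes each KD library lay above every control. Gadd45a, a growth arrest and DNA damage response gene, had 0.778, 0.669, 0.413 and 1.13 FPKM in controls and 3.53, 1.72, 1.30 and 4.24 FPKM after KD, again without overlap. All of these genes were named for passing the test, so the lack of overlap adds no support. How many of all genes lack overlap was not computed.

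Ccn1 was higher by 1.89 ± 0.19 in KD blastocysts (adjusted p 2.56e-05). F3 was higher by 1.64 (adjusted p 2.66e-05), Ccn2 by 1.25 (adjusted p 0.000546) and Gadd45a by 1.01 (adjusted p 0.0109). With a pseudocount of 0.1 the differences of F3, Ccn2 and Gadd45a were 2.67, 2.14 and 1.64. With no minimum FPKM, F3 and Ccn2 still passed (adjusted p 0.000852 and 0.00878, the highest of their alternatives), and the call of Gadd45a was lost (adjusted p 0.0746, range over the alternatives 0.00192 to 0.0746). In morulae the single gene called was F3, with 2.60, 0.704, 0.628 and 0.964 FPKM in controls and 3.03, 4.37 and 6.16 FPKM after KD, without overlap (1.44, adjusted p 0.0103). There 1 of 4 controls and 3 of 3 KD libraries reached the minimum, and F3 did not pass with no minimum FPKM (adjusted p 0.0852, range 0.00272 to 0.0852). Ccn1 in morulae averaged 5.87 ± 1.09 FPKM in controls and 6.67 ± 1.78 FPKM after KD, and Ccn2 averaged 1.27 ± 0.374 and 1.45 ± 0.432 FPKM (SD, n = 4 and 3).

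The KD effect of Ccn1 was larger in blastocysts than in morulae by 1.59 (adjusted p 0.00184) and that of Ccn2 by 1.02 (adjusted p 0.0173). The same difference did not pass for F3 (0.13, adjusted p 0.834) or Gadd45a (0.49, adjusted p 0.346). In controls, 4 of 8 tested genes of the signature rose and 4 fell from the 2-cell embryo to the morula (all genes 43% and 40.3%), and 0 of 4 rose and 2 fell to the blastocyst (all genes 27.6% and 28.8%). Control Ccn1 went from 0.326 ± 0.258 FPKM in 2-cell embryos to 5.87 ± 1.09 in morulae and 2.66 ± 0.806 FPKM in blastocysts (SD, n = 4 each), with the peak at the same stage as Tead4.

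Lineage genes downstream of the first cell fate choice moved in both directions. Of 12 trophectoderm genes, 0 of 4 tested passed in 2-cell embryos and 0 of 8 in morulae (all genes 4.23% higher and 9.04% lower). In KD blastocysts 1 of 11 tested rose and 4 fell, against 16.7% and 19.8% of all genes. Id2 had 847, 853, 677 and 642 FPKM in control blastocysts and 280, 366, 239 and 311 FPKM after KD (-1.33, adjusted p 0.000533). Krt18, a keratin of the outer layer, had 730, 992, 827 and 646 FPKM in controls and 369, 461, 399 and 329 FPKM after KD (-1.02, adjusted p 0.00126). The transcription factor genes Gata2 and Elf5 were lower as well, and in all 4 of these genes every KD library lay below every control. These 4 were named for passing the test, so the lack of overlap adds no support. The share of all genes without overlap was not computed. Gata2 had 0.935 to 3.18 FPKM in controls and 0.0582 to 0.205 FPKM after KD (n = 4 each; -1.39, adjusted p 0.0011, or -3.19 with a pseudocount of 0.1). Elf5 had 1.66 ± 0.635 and 0.105 ± 0.0640 FPKM (SD, n = 4 each; -1.23, adjusted p 0.00051, or -3.07 with a pseudocount of 0.1). Both reached 1 FPKM in 3 of 4 controls and 0 of 4 KD libraries, so they could be tested only by being lower after KD, and the count of 4 does not support a direction for the list. With no minimum FPKM both still passed (adjusted p 0.0201 and 0.01, the highest of their alternatives).

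Tfap2c, an AP-2 transcription factor gene, moved the other way. It had 3.20, 6.50, 8.36 and 8.26 FPKM in control blastocysts and 12.6, 10.6, 18.4 and 11.4 FPKM after KD (0.96, adjusted p 0.00674), each KD library above every control. Cdx2, the trophectoderm master regulator and a TEAD4 target, averaged 1.79 ± 0.765 FPKM in controls and 1.89 ± 0.938 FPKM after KD (SD, n = 4 each; 0.05, 95% interval -0.46 to 0.55). Its sign turned without control replicate 1 (-0.11), KD replicate 5 (-0.098) or KD replicate 6 (-0.024). Gata3 was not called in blastocysts (35.0 ± 3.89 against 28.9 ± 7.90 FPKM; -0.29, adjusted p 0.199). In morulae it had 19.2 ± 3.12 FPKM in controls (n = 4) and 11.5 ± 2.42 FPKM after KD (n = 3; -0.57, adjusted p 0.0658), and passed in 5 of 13 alternatives (range 0.023 to 0.225). These were FPKM as deposited (adjusted p 0.0271), equal sums (adjusted p 0.023) and the fit without KD replicate 6 (adjusted p 0.0297). The others were the replicate number as a block (adjusted p 0.0292) and the range of replicate numbers as a term (adjusted p 0.0485). Krt8 differed by -0.49 in blastocysts (343 ± 102 against 239 ± 58.6 FPKM, adjusted p 0.0794) and passed in 3 of 14 alternatives (adjusted p 0.0242 to 0.264). These were the fit without control replicate 1 (adjusted p 0.0332), the replicate number as a block (adjusted p 0.0242) and the range of replicate numbers as a term (adjusted p 0.0347).

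Of 8 inner cell mass genes, 0 of 4 tested passed in 2-cell embryos and 0 of 5 in blastocysts (all genes 16.7% higher and 19.8% lower), while in KD morulae 1 rose and 1 fell of 5, against 4.23% and 9.04% of all genes. Nanog had 62.9, 103, 113 and 143 FPKM in morula controls and 17.9, 11.6 and 32.5 FPKM after KD, without overlap. It fell by 2.23 (SE 0.37, adjusted p 0.00647), a call lost with no minimum FPKM (adjusted p 0.0719, range over the alternatives 5.51e-20 to 0.0719). Without single libraries the adjusted p ran from 0.00367 to 0.0313, so the lowest value of the range comes from another alternative. In blastocysts Nanog had 132 ± 42.8 FPKM in controls and 161 ± 47.8 FPKM after KD (SD, n = 4 each; 0.29, adjusted p 0.288). Klf2 rose in KD morulae, from 5.41 ± 1.42 (n = 4) to 8.56 ± 0.822 FPKM (n = 3; 0.71, adjusted p 0.0278). Its call was kept in 5 of 13 alternatives (adjusted p 0.0209 to 0.111) and lost without control replicate 2 or 8 (adjusted p 0.0504 and 0.0592) or KD replicate 1 or 2 (adjusted p 0.0877 and 0.111). It was also lost with no minimum FPKM (adjusted p 0.0909), FPKM as deposited (adjusted p 0.0733), equal sums (adjusted p 0.0947) and the replicate number as a block (adjusted p 0.0892). Sox2 was at most 0.295 FPKM in any morula library and had 1.67 ± 0.276 FPKM in control and 1.36 ± 0.352 FPKM in KD blastocysts (n = 4 each; -0.18, adjusted p 0.425).

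Sums of marker genes describe the libraries. The 6 trophectoderm markers summed to 997, 1474, 1311 and 989 FPKM in control blastocysts and 584, 741, 784 and 604 FPKM after KD, with all 6 detected. Of the group means of 1193 and 678 FPKM, Krt18 alone made up 799 and 390 FPKM, while Tfap2c was higher after KD and Cdx2 overlapped, so the lower sum is largely that of Krt18. The 5 inner cell mass markers summed to 159 ± 47.1 FPKM in controls and 208 ± 73.9 FPKM after KD (SD, n = 4 each), led by Nanog. In morulae the inner cell mass sum was 153 ± 14.6 FPKM in controls (n = 4) and 50.6 ± 9.47 FPKM after KD (n = 3). Nanog alone made up 106 and 20.7 FPKM of these means, so this lower sum is largely that of Nanog. The markers with a mean of at least 1 FPKM numbered 3 in controls and 4 after KD. The trophectoderm sum was 129 ± 15.6 FPKM in control and 98.7 ± 16.8 FPKM in KD morulae. Of 8 markers of the 2-cell embryo 7 were in the table, and they summed to 7.02, 5.06, 1.57 and 3.66 FPKM in control blastocysts and 12.2, 36.8, 7.86 and 48.4 FPKM after KD, so each KD library exceeded every control. At the 2-cell stage itself they summed to 661 ± 103 FPKM in controls. Their part, and that of the lineage markers, in the differences of Tead4, Nf2 and the target genes was not tested.

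Markers of cumulus cells, sperm and somatic cells were low, and those of the oocyte were high in 2-cell embryos. The 8 cumulus and granulosa cell markers summed to 1.81 ± 0.867 FPKM in 2-cell controls and at most 0.168 FPKM in any morula or blastocyst library. The 5 sperm markers summed to group means of 0.453 to 1.20 FPKM. The 6 markers of fibroblasts and other somatic cells summed to group means of 1.97 to 4.50 FPKM, led by Pecam1. The 6 oocyte markers, led by Oosp1, summed to 878 ± 109 FPKM in 2-cell controls and 941 ± 131 FPKM after KD, and to group means of 2.21 to 9.29 FPKM in later embryos.

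The genes whose profile over the 22 libraries was most like that of Tead4 were Eif4h, Arhgef16 and Xrcc1, with root mean square differences of 0.23, 0.25 and 0.25 log2 units after centring, among 15696 genes. Xrcc1, a DNA repair scaffold gene, had group means of 14.6 FPKM in control morulae, 3.60 FPKM in control blastocysts and 9.63 FPKM in KD blastocysts. Arhgef16, a guanine nucleotide exchange factor gene, had 5.69, 1.40 and 4.01 FPKM in the same groups. Nearest to Yap1 were Ilrun, Zfp280b and Dicer1 (0.31, 0.31 and 0.32), which shared its high level in 2-cell embryos: Dicer1 had 14.4 FPKM in 2-cell controls and 1.35 FPKM in morula controls. Nearest to Amot were Eif4a2, Gm15766 and Gm13904 (0.19, 0.20 and 0.21).

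TEAD factors bind the letters GGAATG, or CATTCC read on the other strand, and promoter windows of the members and of the 22 signature genes were searched for them as a description of the sequence. The windows are 300 bases each, from 250 before to 50 after the annotated start (RefSeq, GRCm38.p6). Of all 32851 windows 14.7% hold the letters on either strand. Windows were available for 8 members and 15 of the signature genes. The members have 13 windows, of which 6 hold the letters, and the 2 windows of Wwtr1 share the same site. The letters occur in at least 1 window of Yap1, Wwtr1, Tead3 and Lats2, and in those of 7 signature genes (Lats2, Amotl2, Ccn1, Ankrd1, Axl, Crim1 and Ptpn14). Of the searched target genes called in KD blastocysts, Ccn1 has a match, and the windows of F3 and Gadd45a do not hold these letters. The matches of the 3 expressed members and of Ccn1 are shown, each with 12 bases on either side, 5′ to 3′ on the strand of the gene, with the motif in capitals. All 4 genes are on the minus strand. The sites lie at chr9:8004720-8004749 (Yap1), chr3:57576029-57576058 (Wwtr1), chr14:57746102-57746131 (Lats2) and chr3:145650071-145650100 (Ccn1). A match is a description of the letters and shows no binding.
Yap1: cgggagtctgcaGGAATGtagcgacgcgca
Wwtr1: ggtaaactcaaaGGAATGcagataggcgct
Lats2: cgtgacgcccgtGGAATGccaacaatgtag
Ccn1: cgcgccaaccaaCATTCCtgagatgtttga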

How the data were processed

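Gene FPKM values were computed by the authors with StringTie 2.1.4 from reads aligned to mm10 and are used as deposited; all 22 value columns belong to a sample. From these values, limma 3.58.1 in R 4.3.3 was fitted to log2(FPKM/factor + 1), with a median-of-ratios factor per library and a mean-variance trend, on genes of at least 1 FPKM in at least 3 libraries of the comparison. Tests were two-sided, with Benjamini-Hochberg adjustment over all genes tested. The fit across all genes was also run on simulated data with 200 changed genes, and no result given here rests on that run. Python 3.11.15, numpy 2.4.6, pandas 2.3.3 and matplotlib 3.10.9 were used for positions, promoters and plots. The members and gene lists were chosen with earlier results of these data known. Named from each list were genes passing in a KD comparison, at most 4 per list, stage and direction by absolute log2 fold change, plus Cdx2, Gata3, Sox2, Nanog, Krt8 and Krt18, and the 3 genes nearest in profile to Tead4, Yap1 and Amot. Alternatives were a pseudocount of 0.1, no minimum FPKM, FPKM as deposited or rescaled to equal sums, the replicate number as a block, the range of replicate numbers as a term, and leaving out each library in turn. For genes of the wider lists these alternatives were chosen after seeing the data. Overlapping genes were found in the GENCODE annotation of GRCm38.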

Additional observations from a re-analysis of the deposited data

Results flagged for a closer look

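Among 137 pairs of a gene and a group of 4 libraries, 6 held a library far from the other 3 by Dixon's test, a test that chance passes in about 1 of 20 groups. Tead3 had 0.0369 FPKM in blastocyst control replicate 4 and 0.00739 FPKM in blastocyst KD replicate 1, where the 3 other KD libraries were listed at 0. Nanog had 0.422 FPKM in 2-cell control replicate 4. Stk3 had 3.82 FPKM in morula control replicate 8. Tfap2c had 24.6 FPKM and F3 had 2.60 FPKM in morula control replicate 1.

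For 9 of 25 named genes tested, the KD effect in blastocysts differed from that in morulae by the test of the difference itself (limma). The 25 are the named list genes together with H2afz and H2afv, and H2afv is among the 9. Of all genes 5.43% were higher and 6.32% lower. Most of the 25 were named for passing in a KD comparison, which favours such a difference, so the count supports nothing on its own. The effect was higher in blastocysts on the log2 scale for Nanog by 2.49 (adjusted p 0.00202), Ccn1 by 1.59 (adjusted p 0.00184), Tfap2c by 1.10 (adjusted p 0.0235), H2afv by 1.04 (adjusted p 0.0207) and Ccn2 by 1.02 (adjusted p 0.0173). It was lower in blastocysts for Id2 (-2.21, adjusted p 0.00089), Gata2 (-1.37, adjusted p 0.00609), Elf5 (-1.31, adjusted p 0.00157) and Klf2 (-0.76, adjusted p 0.0417). For H2afv the positive value means a smaller fall in blastocysts. Gata2 was listed at 0 in all 4 control morulae and Elf5 was at most 0.142 FPKM in any morula, so their effect could differ only through the blastocyst.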

How the results depend on the processing

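Of the values recomputed under the alternatives, 1043 were classed as unchanged. A difference was unchanged if it kept its direction and its side of the threshold. Counts of members called were unchanged within 1.5 times, and mean Tead4 shares if they moved by less than the SD of their group. Direction was kept and the call lost in 51, while 15 gained the call and 57 changed sign. The other 8 were counts of members called that moved by more than 1.5 times or from 0. Counts over all genes are not part of this tally and are given apart from it. No called difference changed sign: each sign change is of a small difference that did not pass, and the cause was not tested. With FPKM rescaled to equal sums, the KD differences that changed sign were Nf2 in 2-cell embryos (-4.1092e-05), Yap1 (-0.031), Lats2 (-0.061), Amot (-0.13) and Krt8 (-0.10) in morulae, Yap1 (0.038) and Amot (0.073) in blastocysts, and, for blastocysts minus morulae, Yap1 (0.071), Wwtr1 (0.22), Lats1 (0.073) and Amot (0.21). With FPKM as deposited they were Lats2 (-0.020), Amot (-0.089) and Krt8 (-0.040) in morulae, Wwtr1 between control morulae and blastocysts (0.070), and Wwtr1 (0.065), Lats1 (0.0032) and Amot (0.074) for blastocysts minus morulae. These scalings shift all genes: equal sums moved their median from 0.015 to -0.13 in KD morulae, from 0.10 to -0.21 between control 2-cell embryos and morulae, and from -0.0086 to 0.24 for blastocysts minus morulae, and FPKM as deposited gave -0.09 in KD morulae and 0.11 for blastocysts minus morulae. Replicates of the same number were not paired by the labels, and their deviations from the group means correlated by -0.11 to 0.35; 4 of 9 correlated best with their own number. With the replicate number as a block, limma called 0 genes in 2-cell embryos, 645 higher and 979 lower in morulae (1 residual degree of freedom) and 2110 and 2461 in blastocysts, and the sign changed for Wwtr1 in 2-cell embryos (0.022) and for Yap1 (-0.15), Lats2 (-0.65), Amot (-0.11) and Nf2 (-0.070) in morulae. The members called under the block were 0, 0 and 2, as without it. In morulae the block difference rests on replicates 1 and 2, the only numbers found in both groups. With a term for low or high replicate numbers, Amot in morulae was -0.0030. Leaving out single libraries, the KD difference ran from -0.16 to 0.022 for Wwtr1 in 2-cell embryos. In morulae it ran from -0.030 to 0.22 for Yap1, -0.25 to 0.051 for Tead4, -0.29 to 0.53 for Lats2, -0.044 to 0.091 for Amot and -0.13 to 0.23 for Krt8. In blastocysts it ran from -0.44 to 0.19 for Yap1, -0.12 to 0.10 for Amot and -0.11 to 0.17 for Cdx2. For blastocysts minus morulae it ran from -0.58 to 0.040 for Yap1, -0.20 to 0.022 for Wwtr1, -0.27 to 0.55 for Lats2 and -0.15 to 0.063 for Amot, and Wwtr1 between control morulae and blastocysts ran from -0.070 to 0.030. The number of members called in KD blastocysts was 2, with 1 when no minimum FPKM was set, and 1 to 3 without single libraries. It was 3 to 5 between control morulae and blastocysts, 5 to 7 between control 2-cell embryos and morulae, and 0 to 1 for blastocysts minus morulae. Over all genes, the 1458 called in morulae became 412 with no minimum FPKM and 551 to 1744 without single libraries, and the 1495 called for blastocysts minus morulae became 988 and 962 to 1722. With no counts, the depth behind low values such as those of Tead1, Tead2 and Tead3 is unknown.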
